A study of Mus musculus with 51 samples.

Results

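Cells of the mouse oesophagus that carry SmoM2 were sorted into an EpCAM-high and an EpCAM-low gate at 3 weeks, and total RNA of each sort was sequenced. The 8 libraries of this comparison, 4 of each gate, were chosen by their labels from 51 libraries in 14 groups, and all genes with enough counts were compared. Both groups have the genotype Krt5-SmoM2. SmoM2 is a Smoothened that signals without ligand, and Krt5 is a keratin gene of the basal layer of stratified epithelium. The genotype name alone does not say how Krt5 controls SmoM2. Both groups share tissue, genotype and time and differ in the labels only by the gate, so no untreated or wild-type cells enter the comparison. The labels give the time as 3w without saying from which event it is counted, and give no strain and no age for these libraries. They also do not say whether the 4 replicates are separate animals. The p-values thus measure the spread between these libraries, pooled largely over genes, which may be technical in part. A second set of 8 libraries, sorted through the same 2 gates at 7 weeks, serves below to show how the 3-week difference compares with a later one.

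EpCAM is a homophilic adhesion glycoprotein of the epithelial cell surface. It is abundant on simple and progenitor epithelia and scarce on mature squamous epithelium. Hedgehog signalling runs through the receptor Ptch1, which holds Smoothened inactive until ligand binds, and through Gli transcription factors, which switch on Ptch1 and Gli1 themselves as feedback targets. The oesophagus is lined by stratified squamous epithelium, in which basal cells with Krt5, Krt14 and Krt15 give rise to suprabasal cells with Krt4 and Krt13.

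Values are given as counts scaled to a library total of 1000000 (CPM), and differences as the log2 fold of EpCAM-high over EpCAM-low from edgeR's quasi-likelihood test with the replicate number as a block, with its standard error (SE). Where values are paired, the EpCAM-high value stands first and each is a mean over 4 libraries, with its SD where one follows ±; per-library values run from replicate 1 to replicate 4. A gene passed when its p, adjusted by the Benjamini-Hochberg method over all 15777 genes tested, was under 0.05. Library totals ranged from 6.8 to 7.66 M counts in the EpCAM-high gate (M for 1000000) and from 6.19 to 8.4 M in the EpCAM-low gate, so that 3 counts over a whole gate, the limit that a count of 0 allows, correspond to 0.103 and 0.108 CPM. Libraries of the same replicate number deviated together (correlations of 0.165 to 0.295 against -0.174 to 0.043 for unlike numbers), and the fit keeps this pairing. Replicate 4 of both gates carried Y-linked transcripts (Ddx3y at 143.81 and 133.51 CPM, with Xist at 57.71 and 62.64 CPM), whereas replicates 1 to 3 of both gates had Xist at 5559 CPM or more and hardly any Y-linked transcript. As each gate holds one such library, this difference is balanced over the gates. The spread between the 3-week libraries was small, with a common biological coefficient of variation of 4.1%.

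Most markers of other cell types were sparse in both gates. The 15 immune markers summed to 13.9 to 16.5 CPM in EpCAM-high and 11.3 to 13.2 CPM in EpCAM-low libraries. Ptprc, which encodes CD45, had 1 and 0 counts over the EpCAM-high and the EpCAM-low gate, Cd3e had 1 and 0 and Fcer1g none in either. Most of the sum came from Csf1r (5.44 against 5.21 CPM), Cd52 (4.43 against 3.30 CPM) and Itgam (2.83 against 2.16 CPM), which were seen in both gates and did not pass. Of 14 fibroblast markers 5 had enough counts to test and 1 passed, Dcn, at 31.05 against 44.01 CPM. The 14 summed to 40.7 to 59.8 CPM in EpCAM-high and 50.5 to 70.1 CPM in EpCAM-low libraries, mostly from Dcn. Among the others Vim was at 2.25 against 3.44 CPM and did not pass except without replicate 3 or 4 (adjusted p = 0.0141 and 0.0359) or without the filter on low counts (adjusted p = 0.0492). Pdgfra had 37 and 11 counts over the EpCAM-high and the EpCAM-low gate, and Thy1 had 22 and 47. The muscle gene Acta2 was lower in EpCAM-high cells (3.63 against 12.5 CPM) and Mylk higher (2.24 against 0.982 CPM), while Myh11 and Des stayed under 1 CPM in both. The neural and Schwann markers summed to 238 to 251 CPM in EpCAM-high and 194 to 214 CPM in EpCAM-low libraries, nearly all from Erbb3 (242 against 203 CPM). Of the melanocyte markers Pmel was at 19 against 14.4 CPM. The squamous markers Krt5, Trp63, Dsg3 and Dsp were abundant in both gates, whereas the columnar keratin Krt8 was at 0.472 against 0.523 CPM.

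Between the gates 5968 of the 15777 genes tested passed (37.8%), 2921 of them higher (18.5%) and 3047 lower (19.3%) in EpCAM-high cells. Every count of list members below is to be read against these shares. Most of these differences were small. The median absolute log2 fold over all genes tested was 0.21, and 753 genes (4.77%) passed with a fold of at least 2, 471 of them higher and 282 lower. In 4432 genes (28.1%) the 4 libraries of one gate lay entirely above the 4 of the other. The count of genes that passed was 3348 with DESeq2 and 2625 when the wild-type and 7-week libraries shared the estimate of the spread and the block was dropped, with the split between directions nearly even in each.

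**Figure D1:**
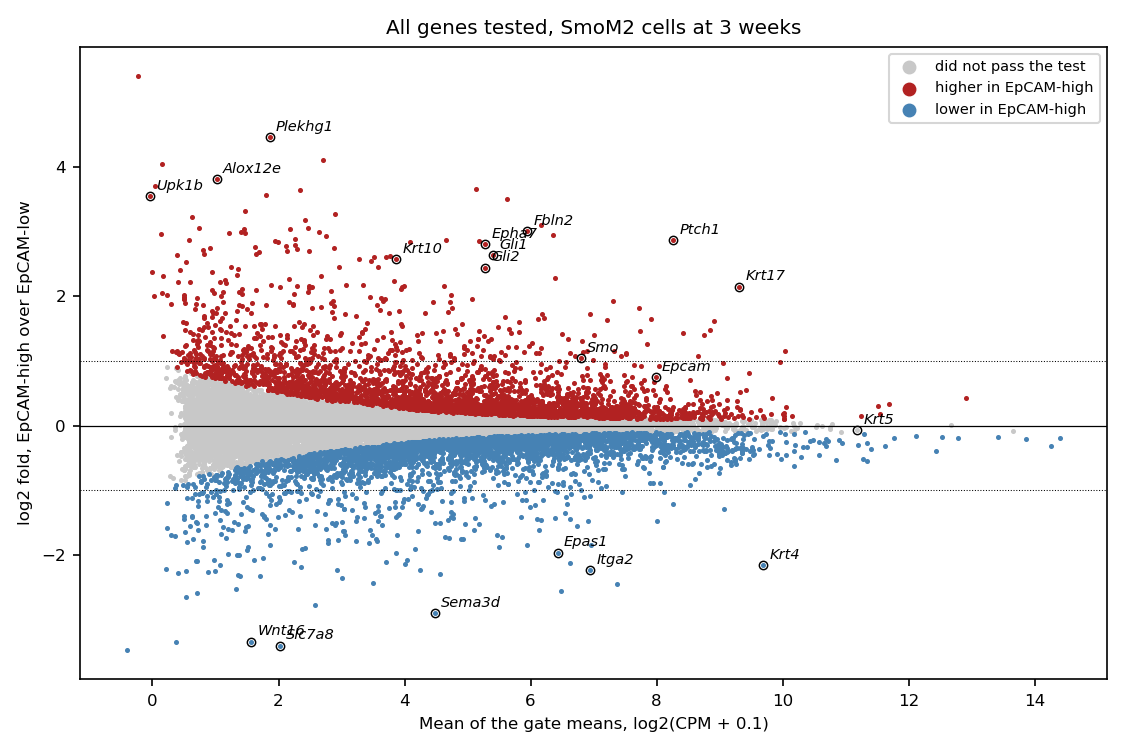
Each point is 1 of the 15777 genes tested, with the mean of the gate means in CPM on the x axis (log2) and the log2 fold of EpCAM-high over EpCAM-low on the y axis; dotted lines mark a 2-fold difference. The Hedgehog pathway genes Ptch1, Gli1 and Gli2 lie at log2 folds of 2.87, 2.64 and 2.44, far above Epcam at 0.74, and Krt5 lies close to 0.

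The sorted marker itself differed modestly in mRNA. Epcam (ENSMUSG00000045394, chr17:87635979-87651129 in GRCm38) was at 328, 326, 333 and 345 CPM in EpCAM-high replicates 1 to 4 and at 209, 183, 179 and 200.2 CPM in EpCAM-low replicates 1 to 4. All 4 EpCAM-high libraries lay above all 4 EpCAM-low ones, and the log2 fold was 0.74 ± 0.044 (adjusted p = 4.75e-22). This is a check of the sort rather than a result, since EpCAM protein defined the gates. In bulk libraries such as these, a larger share of cells that express a gene and more of its RNA per cell cannot be told apart.

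Ptch1, Gli1 and Gli2 of the Hedgehog pathway separated the gates far more widely than Epcam did. The receptor gene Ptch1 (chr13:63508328-63573598, minus strand) was at 766, 836, 902 and 868 CPM in the 4 EpCAM-high libraries and at 105, 121, 102 and 120.4 CPM in the 4 EpCAM-low ones. No EpCAM-low library came near the EpCAM-high range, and the log2 fold was 2.87 ± 0.048, a fold of 7.32 (adjusted p = 5.51e-49). The activator gene Gli1 was at 104, 98.5, 122 and 101 CPM in EpCAM-high and at 16.2, 16.9, 17.6 and 15.7 CPM in EpCAM-low libraries, a log2 fold of 2.64 ± 0.07 (adjusted p = 6.59e-39). Its partner Gli2, the main transcriptional activator downstream of Smoothened, was at 84.98, 88.8, 99.6 and 91.4 CPM in EpCAM-high and 16.7, 18.8, 14.9 and 15.01 CPM in EpCAM-low libraries, a log2 fold of 2.44 ± 0.075 (adjusted p = 1.09e-35). Both genes showed the same order in each of the 4 pairs, with no overlap of the gates.

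Transducers inside the cell were higher by less, and membrane partners of the receptor were lower. Smo was at 168, 165, 170.1 and 143 CPM in EpCAM-high and at 81.8, 72.8, 78.2 and 71.7 CPM in EpCAM-low libraries (log2 fold 1.04 ± 0.051, adjusted p = 1.47e-25). Transgenic and endogenous transcripts of Smo are not distinguished in the gene count, so this value does not show which of them differs. Gpr161, a ciliary receptor that holds the pathway down, and Kif7, a ciliary kinesin that regulates Gli proteins, had log2 folds of 1.33 and 1.26, and Sufu, which binds Gli proteins and restrains them, one of 0.56. In contrast, the co-receptor genes Gas1 (8.63 against 17.3 CPM, log2 fold -1.04) and Cdon (log2 fold -0.58), the Gli3 gene, whose product acts mainly as a repressor (log2 fold -0.62), and Disp1, which releases ligand from producing cells (log2 fold -0.62), were lower. The third co-receptor gene, Boc, did not pass (log2 fold -0.14). The ligand genes Shh, Ihh and Dhh all stayed below 0.5 CPM in both gates, too low to test. Of 24 listed Hedgehog genes 17 could be tested, 8 were higher and 6 lower (3 lower with DESeq2 and in the fit with wild-type libraries). Their median log2 fold was 0.13 against -0.001 over all genes, of which 18.5% were higher and 19.3% lower. The genes of the primary cilium, the organelle through which Smoothened signals, mostly did not pass. Of 29 tested, 3 were higher and 3 lower, beside 18.5% and 19.3% of all genes. Tulp3, which carries Gpr161 to the cilium, was the widest among them (log2 fold 0.84).

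**Figure D2:**
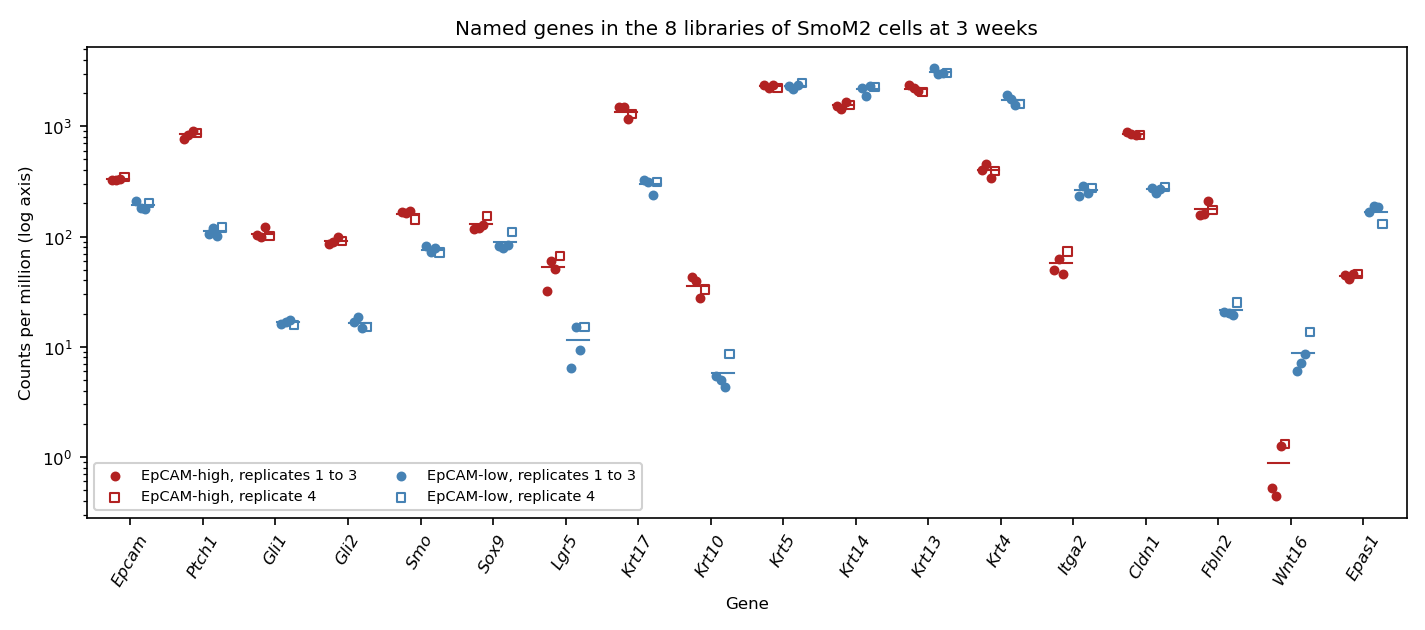
Each point is the CPM (log axis) of 1 library; red marks EpCAM-high and blue EpCAM-low libraries, open squares mark replicate 4, and short lines mark the mean of each gate. For Ptch1, Gli1, Gli2 and Krt17 the gates are far apart in all 4 replicates, whereas for Krt5 they overlap.

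The main basal keratin and the transcription factors of squamous epithelium differed little between the gates, whereas several adhesion genes of the basal layer were lower in EpCAM-high cells. Krt5 was at 2365, 2246, 2365 and 2229.6 CPM in EpCAM-high and at 2324, 2202, 2345 and 2470.0 CPM in EpCAM-low libraries; the ranges overlapped and the gene did not pass (log2 fold -0.066 ± 0.039, adjusted p = 0.191) except without the filter on low counts (adjusted p = 0.0365). Krt14 (1553 ± 94.8 against 2182 ± 205 CPM) and Krt15 (1032 ± 91.3 against 1313 ± 47.3 CPM) were lower by log2 folds of -0.53 and -0.40. Trp63, the master factor of stratified epithelium, was slightly higher (log2 fold 0.20), and Sox2, a foregut factor of the oesophagus, did not pass (38.5 against 36.3 CPM, log2 fold 0.042). Itga2, the collagen-binding integrin subunit, was the exception in size, at 49.9, 62.8, 45.5 and 73.2 CPM in EpCAM-high and 232, 289.6, 249 and 276 CPM in EpCAM-low libraries (log2 fold -2.23 ± 0.054, adjusted p = 4.95e-41). Every EpCAM-low library exceeded every EpCAM-high library for this gene by a wide margin, though a rule that named it asks for no overlap. The hemidesmosome genes Itga6, Itgb4 and Col17a1 were lower by less (log2 folds -0.24, -0.35 and -0.32), while the laminin chain genes Lama3 and Lamb3 did not pass. Among basal markers that were higher, Ngfr, the p75 neurotrophin receptor, had a log2 fold of 0.83. In all, 2 of 23 tested basal genes were higher and 12 lower, with a median log2 fold of -0.24; the fit with wild-type libraries called 5 of them lower.

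The suprabasal programme split rather than moving one way. Krt4, the oesophageal suprabasal keratin, was at 402, 454, 341 and 394 CPM in EpCAM-high and 1928, 1769.8, 1563 and 1596 CPM in EpCAM-low libraries, lower by a fold of 4.46 (log2 fold -2.16 ± 0.042, adjusted p = 1.44e-45). Its partner Krt13 was lower by much less (2184 ± 146 against 3102 ± 170.0 CPM, log2 fold -0.55). Krt10, the suprabasal keratin of epidermis, had the opposite direction, with 43.2, 39.1, 27.8 and 33.00 CPM in EpCAM-high and 5.46, 5.04, 4.29 and 8.56 CPM in EpCAM-low libraries (log2 fold 2.58 ± 0.12, adjusted p = 1.75e-26). Neither Krt4 nor Krt10 overlapped between the gates. The cornified envelope scaffold genes Evpl and Ppl were higher (log2 folds 0.71 and 0.55), together with the lipoxygenase gene Alox12 (4.95 against 1.31 CPM, log2 fold 1.85) and the differentiation factor Grhl3 (log2 fold 0.59). Lower were Crct1 (16.5 against 42.4 CPM, log2 fold -1.42), the epithelial metallothionein Mt4 (21.7 against 60.4 CPM, log2 fold -1.52) and Tgm3, a transglutaminase that crosslinks the envelope (log2 fold -0.74). The small proline-rich genes went both ways, with Sprr1a higher (log2 fold 0.56) and Sprr1b lower (log2 fold -1.16). Reads of the near-identical Sprr2 genes cannot be assigned with certainty, which bears on Sprr2h (log2 fold -1.61). Of 38 differentiation genes tested, 15 were higher and 16 lower, around a median of -0.05, beside 18.5% and 19.3% of all genes.

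Stress keratins were higher in EpCAM-high cells except for one. Krt17 (chr11:100256217-100261029), a keratin of wounds and hair follicles, was at 1507, 1493, 1156 and 1288 CPM in EpCAM-high and 328, 309.6, 238 and 313 CPM in EpCAM-low libraries (log2 fold 2.15 ± 0.043, adjusted p = 1.6e-45). Every EpCAM-high library had several times the level of any EpCAM-low one. Krt6a was at 1584 ± 106 against 693 ± 91.1 CPM (log2 fold 1.16), and Krt6b had a log2 fold of 1.12; the sequences of these paralogs are so alike that their counts are uncertain. Krt16, the usual partner of Krt6, was lower (313 ± 34.7 against 456 ± 37.02 CPM, log2 fold -0.59). Wound-related protease genes were also lower, with Plau, the urokinase gene, at 44.7 against 101 CPM (log2 fold -1.22) and its receptor gene Plaur at a log2 fold of -0.77. Of 17 genes tested on this list, 5 were higher and 10 lower, beside 18.5% and 19.3% of all genes.

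Markers of columnar and secretory epithelium were scarce in both gates at 3 weeks. Krt8 and Krt7 had too few counts to test (0.472 against 0.523 CPM and 0.816 against 1.31 CPM). Krt18 was low and lower in EpCAM-high cells (2.03 against 3.56 CPM, log2 fold -0.82), a call lost without replicate 2 (adjusted p = 0.152), and Krt19 did not pass (2.55 against 2.16 CPM). Krt20, a keratin of mature intestinal and urothelial surface cells, was the one simple keratin that was clearly higher, at 39.2, 38.4, 26.3 and 28.3 CPM in EpCAM-high and 8.04, 8.70, 5.95 and 6.13 CPM in EpCAM-low libraries (log2 fold 2.15 ± 0.11). Of the secretory, gastric and intestinal genes 7 of 32 could be tested, and 5 were higher, all of them at low levels. These were Upk1b, a urothelial tetraspanin (2.87, 3.82, 2.80 and 1.71 against 0.759, 0.153, 0 and 0 CPM, log2 fold 3.55), the mucin genes Muc5b (log2 fold 0.89) and Muc6 (log2 fold 0.53; adjusted p = 0.0554 without replicate 4), the mucus protein gene Fcgbp (log2 fold 1.25) and the aminopeptidase gene Anpep (log2 fold 1.17). Tff2, Tff3 and Fabp1 had no count in either gate. Among endoderm factors, Foxe1, a forkhead factor, was higher (42.8 ± 8.75 against 11.1 ± 0.682 CPM, log2 fold 1.91) and Gata6 lower (0.791 against 3.72 CPM, log2 fold -2.26), while Foxa1 was slightly lower (log2 fold -0.25). Foxa2, Hnf4g and Cdx2 had no count.

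Tight junction genes were mostly higher in EpCAM-high cells. Cldn1, the main claudin of stratified epithelium, was at 885, 848, 833 and 839 CPM in EpCAM-high and 275, 251, 271 and 280.3 CPM in EpCAM-low libraries (log2 fold 1.62 ± 0.041, adjusted p = 3.89e-40). Ocln, which encodes occludin, was at 128, 142, 105 and 118 CPM in EpCAM-high and 33.8, 49.3, 29.2 and 41.97 CPM in EpCAM-low libraries (log2 fold 1.64 ± 0.064, adjusted p = 1.57e-30). Neither gene overlapped between the gates. Cldn8 (log2 fold 1.28), Cldn2 (log2 fold 1.10), Cldn10 (log2 fold 0.86), the occludin relative Marveld3 (log2 fold 1.01) and the junction scaffold Cgn (log2 fold 0.60) were higher at lower levels. Cldn2 lost its call without the block (adjusted p = 0.0788). Cldn4 did not pass (93.9 against 83.7 CPM) except without replicate 4 (adjusted p = 0.0315). Of 16 genes tested, 12 were higher and 1 lower (0 without replicate 3, without replicate 4, without the block, with DESeq2 and in the fit with wild-type libraries), with a median log2 fold of 0.54. Cdh1, which encodes E-cadherin, did not pass (900.1 ± 31.8 against 877 ± 26.2 CPM). Desmosome genes differed little, with Dsc2 the widest (log2 fold 0.51) and Dsp at a log2 fold of 0.33. Among other adhesion genes the protocadherin gene Pcdh19 (63.1 against 23.2 CPM, log2 fold 1.39) and Alcam (179 against 70.4 CPM, log2 fold 1.30) were higher, and Icam1, the leukocyte ligand, was lower (204 against 456 CPM, log2 fold -1.22).

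**Figure D3:**
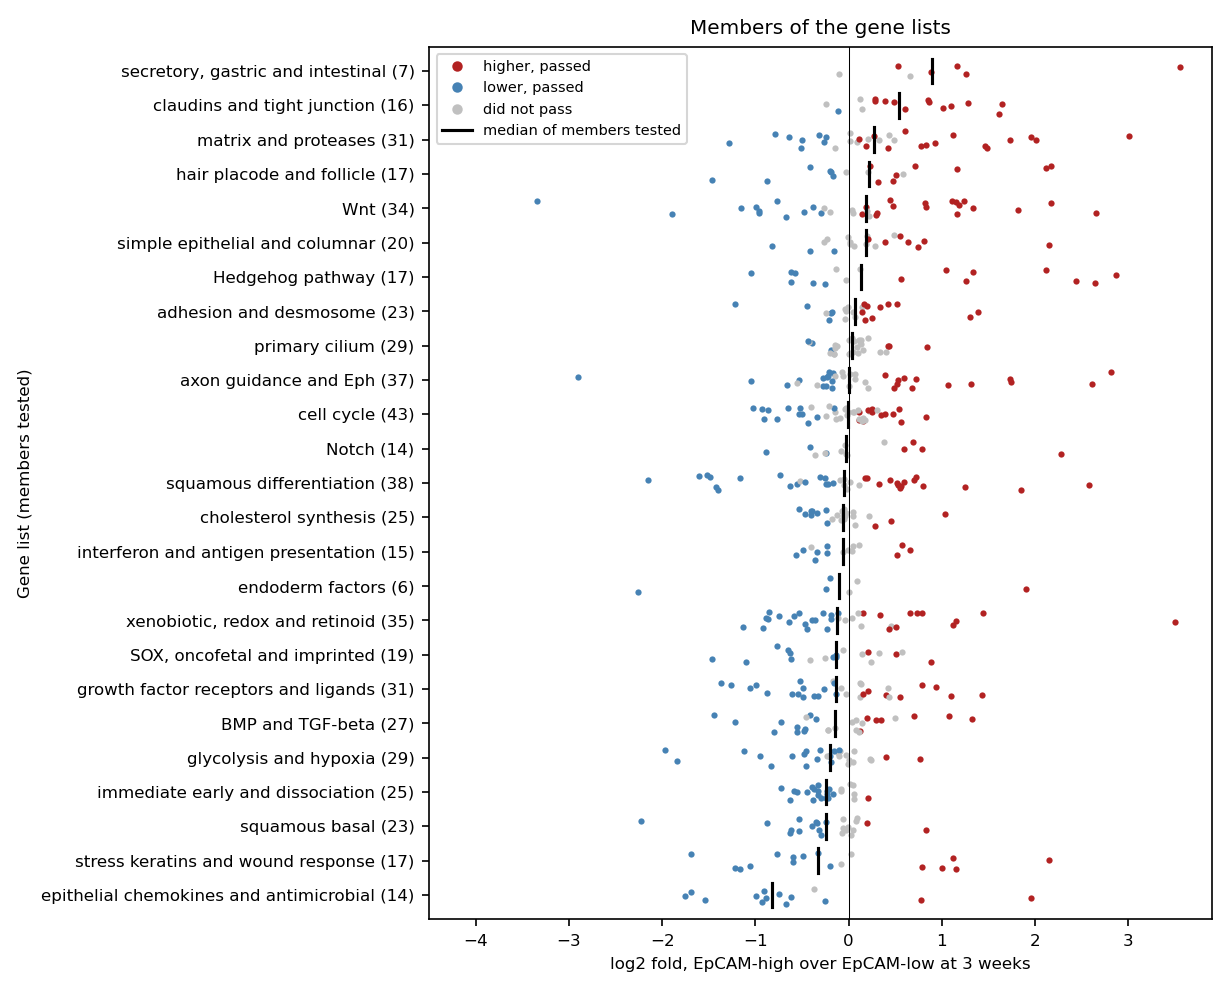
Each point is a tested member of a gene list, placed at its log2 fold of EpCAM-high over EpCAM-low at 3 weeks (red higher and passed, blue lower and passed, grey did not pass); black bars are medians, and the number of tested members stands beside each name. Tight junction and secretory genes have the highest medians (0.54 and 0.89), and chemokine and antimicrobial genes the lowest (-0.82).

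Several genes of the extracellular matrix were among the widest differences. Fbln2, a fibulin of basement membranes and elastic fibres, was at 158, 162, 210.3 and 174 CPM in EpCAM-high and 20.6, 20.3, 19.4 and 25.2 CPM in EpCAM-low libraries (log2 fold 3.01 ± 0.07, adjusted p = 6.62e-42). Its relative Fbln1 was at 227 ± 13.51 against 66.5 ± 1.03 CPM (log2 fold 1.73), Tnc, which encodes the wound and tumour matrix protein tenascin C, at 786 ± 72.05 against 272 ± 18.1 CPM (log2 fold 1.49), and Hspg2, which encodes perlecan, at 359 ± 34.9 against 126 ± 11.9 CPM (log2 fold 1.47). All 4 were without overlap of the gates, as were 28.1% of all genes tested. For Fbln2 this was a condition of a rule that named it. The gelatinase gene Mmp2 (25.6 against 6.37 CPM, log2 fold 1.96) and the basement membrane collagen gene Col4a1 (4.04 against 0.982 CPM, log2 fold 2.01) were higher too. Col18a1 (8.72 against 20.7 CPM, log2 fold -1.28), Thbs1 (log2 fold -0.51) and the membrane protease gene Adam8 (log2 fold -0.64) were lower. Of 31 genes tested, 15 were higher and 8 lower, with a median log2 fold of 0.27. Of the fibroblast markers Dcn was lower in EpCAM-high cells, Pdgfra, with too few counts to test, had more counts there, and Col1a1 stayed below 2 CPM in both gates; the part of other cells in these values was not tested.

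Wnt ligands and receptors differed in both directions. Wnt16 was at 0.522, 0.441, 1.26 and 1.31 CPM in EpCAM-high and 6.07, 7.18, 8.57 and 13.6 CPM in EpCAM-low libraries (log2 fold -3.34 ± 0.24, adjusted p = 5.72e-18), and Wnt10a was lower by less (log2 fold -0.97). Wnt7b (50.8 ± 3.81 against 14.1 ± 3.69 CPM, log2 fold 1.81), Wnt9a (4.19 against 0.623 CPM, log2 fold 2.66) and Wnt5b (log2 fold 1.33) were higher. Lgr5, the R-spondin receptor and marker of several epithelial stem cells, was at 32.1, 60.5, 50.9 and 66.6 CPM in EpCAM-high and 6.37, 14.96, 9.41 and 15.01 CPM in EpCAM-low libraries (log2 fold 2.17 ± 0.089, adjusted p = 2.17e-29). Every EpCAM-high library was above every EpCAM-low one, and its relative Lgr6 had a log2 fold of 1.16, while Lgr4 did not pass. Frizzled receptor genes Fzd1, Fzd2 and Fzd3 were each higher (log2 folds 1.24, 1.15 and 1.11). The extracellular inhibitor genes Sfrp1 (26.2 against 56.5 CPM) and Dkk3 (2.76 against 9.90 CPM), together with Apcdd1, were lower (log2 folds -1.15, -1.89 and -0.999). Axin2, a feedback target of beta-catenin, was higher at a low level (4.07 against 1.70 CPM, log2 fold 1.19), and so was Znrf3, a feedback inhibitor at a higher one (95.9 against 52.4 CPM, log2 fold 0.83). Of 34 Wnt genes tested, 17 were higher and 11 lower (7 without replicate 3), beside 18.5% and 19.3% of all genes. Their median log2 fold was 0.19.

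Factors of hair follicle and progenitor cells differed in both directions. Sox9 was at 118, 119.7, 128 and 155 CPM in EpCAM-high and 82.2, 79.2, 83.4 and 109.8 CPM in EpCAM-low libraries (log2 fold 0.51 ± 0.051, adjusted p = 1.14e-12). Replicate 4 was the highest library within each gate, and the gates did not overlap. Sox4, a progenitor factor, was at 104 ± 8.16 against 54.9 ± 6.05 CPM (log2 fold 0.88). The homeobox gene Barx2 was lower (43.97 ± 3.65 against 118 ± 12.7 CPM, log2 fold -1.47), and Runx1 and Cux1 were higher (log2 folds 0.48 and 0.72). Placode genes such as Lhx2, Foxi3 and Edar had too few counts to test. Of 17 hair placode and follicle genes tested, 8 were higher and 6 lower, beside 18.5% and 19.3% of all genes, with a median log2 fold of 0.22. In the fit with wild-type libraries 5 were higher and 2 lower, and 3 were lower with DESeq2 or without the block. Among Notch genes Dtx4, a ubiquitin ligase of the pathway, had the widest difference (9.79 against 1.95 CPM, log2 fold 2.27), the ligand gene Dll1 was lower (60.5 against 108 CPM, log2 fold -0.88), and the target gene Hes1 (237 against 143 CPM, log2 fold 0.69) and the receptor gene Notch2 (log2 fold 0.59) were higher. Notch1 and Notch3 did not pass.

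Signalling genes of the BMP, TGF-beta and growth factor families were divided. The BMP targets Id1 (22.3 against 8.61 CPM, log2 fold 1.32) and Id3 (log2 fold 0.71) and the ligand gene Bmp7 (54.7 against 24.9 CPM, log2 fold 1.07) were higher, and Id2 was lower (log2 fold -0.35). Several genes of TGF-beta signalling were lower, with Tgfb2 at 5.05 against 11.4 CPM (log2 fold -1.22), the target gene Tgfbi at 60.6 ± 9.60 against 160.2 ± 27.1 CPM (log2 fold -1.45), the receptor gene Tgfbr2 at a log2 fold of -0.55 and the effector gene Smad3 at -0.56. Over the BMP and TGF-beta list 7 of 27 tested genes were higher and 10 lower (3 and 5 in the fit with wild-type libraries), with a median log2 fold of -0.15. Egfr was lower (512 ± 65.04 against 719 ± 19.4 CPM, log2 fold -0.54), and its ligand genes went apart, Areg (log2 fold 0.78) and Btc (log2 fold 1.43) being higher and Ereg (log2 fold -1.06) and Epgn (log2 fold -0.49) lower. The receptor feedback genes Spry1, Spry2 and Dusp6 were lower (log2 folds -0.99, -0.61 and -0.52). Of 31 growth factor genes tested, 8 were higher and 15 lower, beside 18.5% and 19.3% of all genes. Igfbp5 (271 against 123 CPM) and Igfbp2 (41.4 against 96.5 CPM), which bind insulin-like growth factors, had opposite log2 folds of 1.10 and -1.27.

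Guidance receptors and ligands included some of the widest differences in either direction. Epha7, an ephrin receptor, was at 107, 96.05, 109.8 and 103 CPM in EpCAM-high and 13.2, 14.96, 14.6 and 14.7 CPM in EpCAM-low libraries (log2 fold 2.81 ± 0.073, adjusted p = 1.73e-39). Sema3d, a secreted semaphorin, was at 9.01, 5.44, 8.11 and 10.3 CPM in EpCAM-high and 56.9, 61.8, 58.1 and 63.3 CPM in EpCAM-low libraries (log2 fold -2.91 ± 0.10, adjusted p = 3.07e-34). Neither overlapped. Sema6a (32.7 against 5.09 CPM, log2 fold 2.61), Epha4 (134 against 39.1 CPM, log2 fold 1.73) and Sema3a (log2 fold 1.74) were higher, and Plxna2, a semaphorin receptor, was lower (log2 fold -1.05). In the 8-library fit the list as a whole showed no lean, with 13 of 37 genes higher, 13 lower and a median log2 fold of 0. The lower count fell to 7 with DESeq2 and to 2 in the fit with wild-type libraries, while the higher count stayed within 1.5 times of 13. At a fold of at least 2, 6 members were higher and 2 lower. Over all genes 18.5% were higher and 19.3% lower.

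Cell cycle genes divided by phase. All 6 Mcm genes of the replicative helicase were lower, among them Mcm5 at 18.3, 21.03, 22.2 and 24.3 CPM in EpCAM-high and 31.7, 45.7, 43.6 and 38.4 CPM in EpCAM-low libraries (log2 fold -0.93 ± 0.082, adjusted p = 7.33e-15), as were Rrm2, a subunit of ribonucleotide reductase (log2 fold -0.65), and Tyms, which makes thymidylate (log2 fold -0.52). The G1 cyclins Ccnd1 (64.2 ± 12.5 against 117 ± 14.2 CPM, log2 fold -0.91) and Ccnd2 (125 ± 21.1 against 246 ± 45.00 CPM, log2 fold -1.02) were lower as well. Mitotic genes were higher where they passed. The kinetochore gene Cenpf was at 184, 150.2, 222 and 224 CPM in EpCAM-high and 148, 104, 126 and 142 CPM in EpCAM-low libraries (log2 fold 0.54 ± 0.052, adjusted p = 2.66e-13), Cenpe had a log2 fold of 0.56, and the mitotic cyclin genes Ccnb1 and Ccnb2 had log2 folds of 0.39 and 0.34. The proliferation marker Mki67 differed by a log2 fold of 0.11 (634 ± 114 against 565 ± 67.9 CPM), which no longer passed without replicate 3 or 4 (adjusted p = 0.195 and 0.336), without the block (adjusted p = 0.407), in the 16-library fit with the block (adjusted p = 0.178) or without the filter on low counts (adjusted p = 0.0504). Bub1, Aurkb and Plk1 did not pass. Over the list 12 of 43 genes were higher and 12 lower, so that the count alone hides the division. The number of higher genes fell to 7 without the block, 6 with DESeq2 and 4 in the fit with wild-type libraries.

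**Figure D4:**
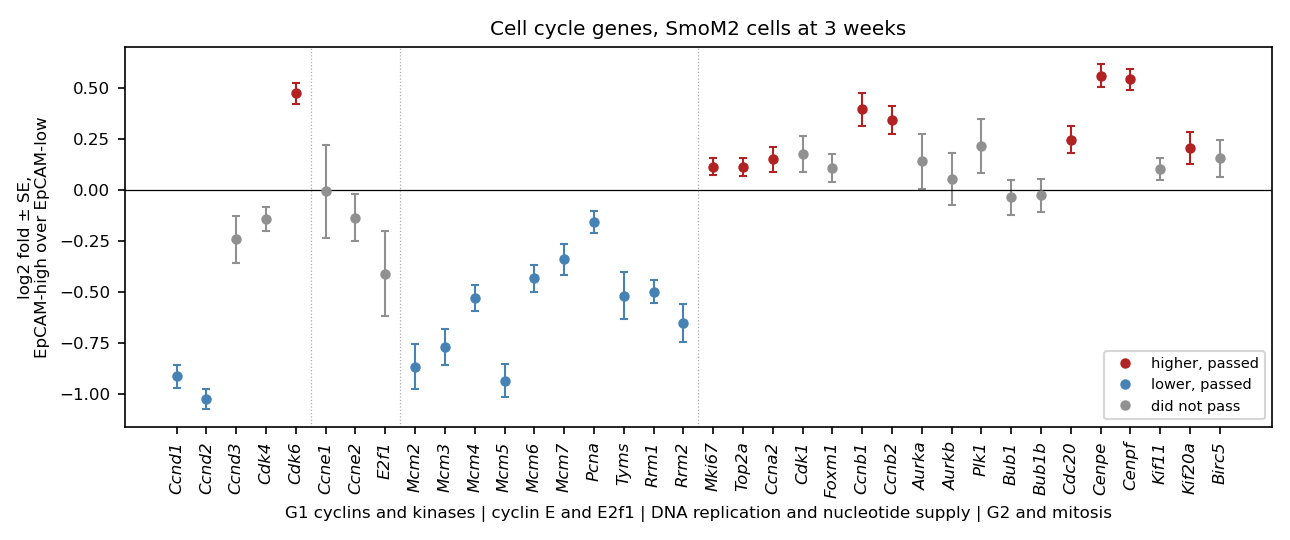
Points are log2 folds of EpCAM-high over EpCAM-low at 3 weeks with their SE, for cell cycle genes ordered by phase (red higher and passed, blue lower and passed, grey did not pass). The helicase genes Mcm2 to Mcm7 lie between -0.93 and -0.34, and Cenpe and Cenpf lie at 0.56 and 0.54.

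Immediate early, inflammatory and hypoxia-related genes were lower in EpCAM-high cells. Of 25 immediate early and heat shock genes, which also respond to tissue dissociation, 18 were lower and 1 higher, by small amounts. Fosb was at 951 ± 122 against 1424 ± 132 CPM (log2 fold -0.63) and the phosphatase gene Dusp1 at a log2 fold of -0.59, whereas Egr1 did not pass (1144 ± 85.4 against 1176 ± 112 CPM) except without replicate 4 (adjusted p = 0.0442) and without the filter on low counts (adjusted p = 0.0196). In the fit with wild-type libraries 3 members were lower. The part of dissociation in these differences was not tested. Of 14 chemokine and antimicrobial genes tested 11 were lower (4 in the fit with wild-type libraries), with a median log2 fold of -0.82. They included the chemokine gene Cxcl1 (15.6 against 29.8 CPM, log2 fold -0.99), the protease inhibitor gene Wfdc2 (16.3 against 53.4 CPM, log2 fold -1.75) and the chitinase-like gene Chil1 (2.09 against 6.00 CPM, log2 fold -1.54). Cxcl14 was higher from a low level (2.58 against 0.639 CPM, log2 fold 1.96).

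Epas1, which encodes the hypoxia-inducible factor HIF-2 alpha, was at 44.5, 41.04, 45.3 and 45.5 CPM in EpCAM-high and 169, 189, 186 and 131 CPM in EpCAM-low libraries (log2 fold -1.97 ± 0.062, adjusted p = 2.85e-35). The EpCAM-low libraries were all well above the EpCAM-high ones. Hif1a was at 298 ± 6.19 against 515 ± 35.05 CPM (log2 fold -0.83). The HIF target genes Car12, a carbonic anhydrase (66.6 ± 9.90 against 231 ± 30.6 CPM, log2 fold -1.84), Adm, the adrenomedullin gene (log2 fold -1.13), and Egln3, a HIF prolyl hydroxylase (log2 fold -0.95), were lower too. Vegfa went the other way (31.1 against 22.9 CPM, log2 fold 0.40). The glycolytic genes Slc2a1, Pkm and Ldha were lower by log2 folds of -0.48, -0.31 and -0.34, and Pgk1 and Eno1 did not pass. In all 16 of 29 tested genes were lower and 2 higher (1 without replicate 3 or without replicate 4), with a median log2 fold of -0.2.

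Genes of retinoid and xenobiotic metabolism differed in both directions. The retinal reductase gene Dhrs3 was lower (10.9 against 23.1 CPM, log2 fold -1.13), Adh7, an alcohol dehydrogenase of the upper digestive tract, was higher (728 ± 60.7 against 425 ± 27.5 CPM, log2 fold 0.73), and Cyp26b1, which clears retinoic acid, was slightly lower (log2 fold -0.19). Cyp2s1 (243 against 106 CPM, log2 fold 1.15) and Gsta3 (10.01 against 3.59 CPM, log2 fold 1.45) were higher, and the glutathione transferase genes Gstm1 and Gstm2, which resemble each other closely, were lower (log2 folds -0.92 and -0.75). Of 35 genes tested, 11 were higher and 18 lower, beside 18.5% and 19.3% of all genes tested. Cholesterol synthesis genes showed little, with 3 higher and 8 lower of 25, beside the same shares of all genes. Scd1, a fatty acid desaturase, was the widest (18.7 against 8.92 CPM, log2 fold 1.03).

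The widest differences over all genes at 5 CPM or more, without overlap of the gates, brought in genes outside the lists. Plekhg1, which encodes a guanine nucleotide exchange factor, was at 16.6, 21.5, 12.6 and 14.3 CPM in EpCAM-high and 1.06, 0.916, 0.357 and 0.484 CPM in EpCAM-low libraries (log2 fold 4.47 ± 0.22, adjusted p = 2.22e-25). It was followed by Srgap1, a GTPase-activating protein downstream of Slit and Robo (26.8 against 1.49 CPM, log2 fold 4.12), Alox12e, an epidermal lipoxygenase (6.99 against 0.483 CPM, log2 fold 3.81), Calm4, a calmodulin-like protein (125 against 9.66 CPM, log2 fold 3.67), and Fut9, a fucosyltransferase (17.6 against 1.35 CPM, log2 fold 3.64). The next genes included Itgb8, an integrin subunit that activates latent TGF-beta (log2 fold 3.18), Gjb6, which encodes connexin 30 (log2 fold 3.05), and Slc40a1, which encodes the iron exporter ferroportin (log2 fold 3.04).

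On the other side, Slc7a8, a transporter of neutral amino acids, was at 1.44, 1.03, 1.68 and 0.657 CPM in EpCAM-high and 11.7, 15.9, 11.6 and 11.3 CPM in EpCAM-low libraries (log2 fold -3.41 ± 0.21, adjusted p = 6.65e-21). After Wnt16 and Sema3d came Lypd6 (2.24 against 15.1 CPM, log2 fold -2.78), Dynap (37.4 against 213 CPM, log2 fold -2.56), Atp12a, the non-gastric proton pump (0.993 against 5.63 CPM, log2 fold -2.52), and Gpnmb, a transmembrane glycoprotein (71.7 against 382 CPM, log2 fold -2.45). Flt1, the gene of a VEGF receptor, was also lower (4.89 against 25.7 CPM, log2 fold -2.44), as was Hpgd, which degrades prostaglandins (10.7 against 51.3 CPM, log2 fold -2.30). The endothelial markers Cdh5 and Kdr were at or below 0.2 CPM in both gates, while Pecam1 was at 19.5 against 13.1 CPM and higher in EpCAM-high cells, opposite to Flt1.

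The same gates at 7 weeks showed most of these differences again, and some of them wider. Of the 5968 genes that passed at 3 weeks 73.1% passed in the same direction at 7 weeks and 127 in the opposite one. Over all 16621 genes tested in that fit 47.5% passed at 7 weeks, a share that counts either direction and is thus not the same measure. List medians did not all keep their lean. Those of immediate early genes (-0.24 to -0.04) and squamous basal genes (-0.24 to -0.03) shrank, and that of BMP and TGF-beta genes turned from -0.15 to 0.16. Medians of tight junction genes (0.54 to 1) and of chemokine and antimicrobial genes (-0.82 to -1.2) moved further out. So did those of hair placode and follicle genes (0.22 to 1.02), matrix genes (0.27 to 0.67) and Wnt genes (0.19 to 0.45). That of secretory, gastric and intestinal genes fell from 0.89 to 0.33. Of the 753 genes with a fold of at least 2 at 3 weeks, 559 had a larger absolute fold at 7 weeks. The like share over all genes tested was not counted, so 559 does not show whether widening was particular to these genes. The difference between the weeks itself was tested as a gate by time term in one fit of 16 libraries, and 2243 genes passed, 1218 with a more positive log2 fold at 7 weeks (7.33% of those tested) and 1025 with a more negative one (6.17%). Among the 753 genes the term passed in 273 with a larger and in 28 with a smaller absolute fold at 7 weeks. All 7-week libraries carried Y-linked transcripts and 6 of the 8 libraries at 3 weeks did not, so sex moved with the week, and the term passed in 486 genes when only libraries with Y-linked transcripts were fitted. That smaller fit has a single library of each gate at 3 weeks, which is assumed to vary like the 7-week libraries.

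The Hedgehog pathway genes Ptch1, Gli1 and Gli2 were further apart at the later time. Ptch1 was at 1773 ± 137 against 89.4 ± 17.8 CPM at 7 weeks (mean ± SD, n = 4 per gate), a log2 fold of 4.27 against 2.87 at 3 weeks in the 8-library fit, and the gate by time term was 1.41 ± 0.12 (adjusted p = 7.78e-10). For Gli1 and Gli2 the term was 1.61 ± 0.16 and 1.61 ± 0.16. Smo itself had log2 folds of 1.04 and 1.22, and its term did not pass (0.19 ± 0.079, adjusted p = 0.117). Krt17 had the widest change among the keratins named, reaching 2819 ± 324 against 81.4 ± 17.4 CPM at 7 weeks (term 2.93 ± 0.10, adjusted p = 1.63e-18). Krt4, which was lower in EpCAM-high cells at 3 weeks, was lower still at 7 weeks (term -1.34 ± 0.15). Epcam and Sox9 had small positive terms (0.34 ± 0.072 and 0.61 ± 0.094). That of Epcam did not pass among libraries with Y-linked transcripts only.

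Other genes also differed more widely between the gates at 7 weeks than at 3 weeks, among them Ceacam1 and Cald1, which differed little at 3 weeks. Ceacam1, a cell adhesion molecule, had a log2 fold of 0.073 at 3 weeks and did not pass, and one of 2.64 at 7 weeks (term 2.58 ± 0.11, adjusted p = 2.46e-15). Cald1, which binds actin and myosin, turned from a log2 fold of -0.37 to 2.74 (term 3.11 ± 0.20, adjusted p = 8.37e-12). Pappa, a protease of IGF-binding proteins, went from -1.34 to -4.04 (term -2.69 ± 0.22, adjusted p = 7.24e-10). Cldn1 and Alcam, already higher at 3 weeks, widened by 1.71 and 1.49, and Car12, Icam1 and the imprinted transcript H19, already lower, widened downwards by -1.46, -1.07 and -1.26.

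**Figure D5:**
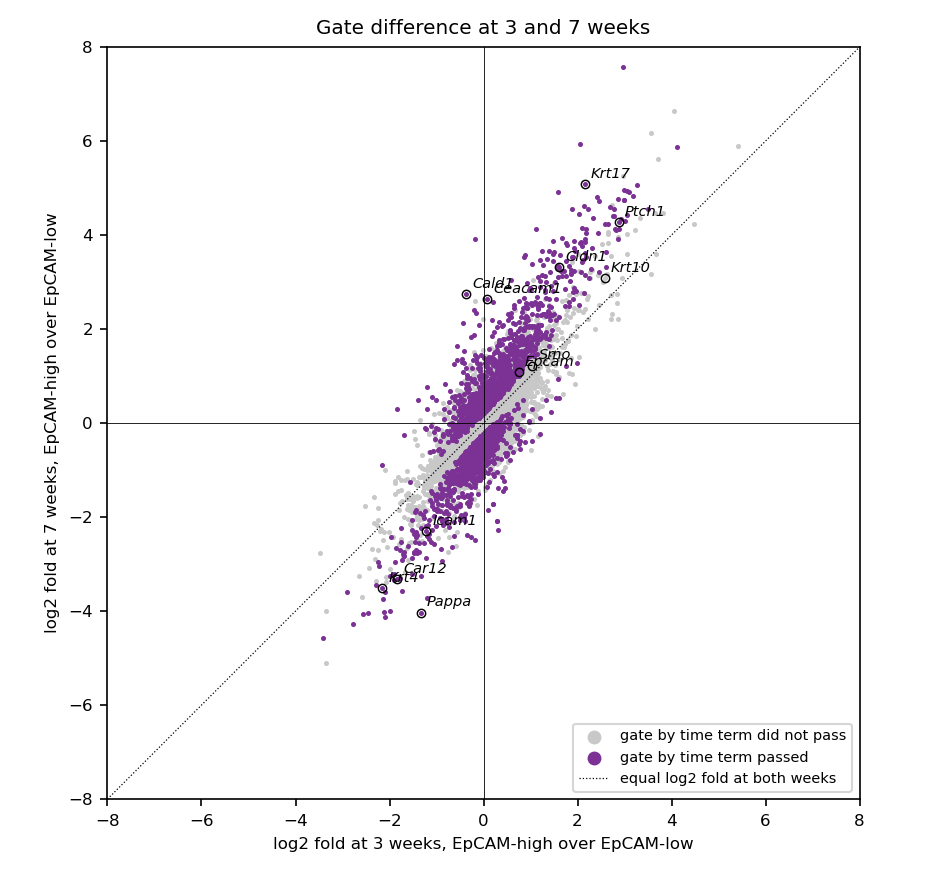
Each point is a gene tested at both weeks, with the log2 fold of EpCAM-high over EpCAM-low at 3 weeks on the x axis and at 7 weeks on the y axis; purple points passed the gate by time term and the dotted line marks equal folds. Ptch1, Krt17, Cldn1 and Ceacam1 lie above the line, and Krt4, Car12 and Pappa lie below it.

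Of 209 genes whose 3-week difference is given here, 37 no longer passed when wild-type and 7-week libraries shared the estimate of the spread and no block was used. Axin2, Cald1, Ccnb1, Ccnb2, Cldn10, Cldn2, Col17a1, Cyp26b1, Dcn, Dsg3, Dsp, Epgn, Ereg, Foxa1, Gli3, H2-Ab1, H2-D1, H2-K1, Hmga1, Id2, Irf1, Itga6, Krt18, Mcm7, Mki67, Muc6, Mylk, Pecam1, Plagl1, Ppl, Runx1, Smad3, Sox9, Sprr1a, Thbs1, Trp63 and Vegfa were the genes concerned. With DESeq2 9 of the genes given no longer passed: Ccnb1, Cldn2, Disp1, H2-Ab1, Krt18, Mki67, Mylk, Plagl1 and Trp63. No call of a named gene reversed its direction in any alternative. The Hedgehog pathway genes Ptch1, Gli1 and Gli2, the keratin genes Krt17, Krt4 and Krt10, Itga2, Cldn1, Fbln2, Lgr5, Wnt16, Epha7, Sema3d and Epas1 passed in every one.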

How the data were processed

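Total RNA of sorted cells was made into NuGEN Ovation Solo libraries, per the labels. The deposited values are raw read counts per Ensembl gene; the submitters' processing notes name STAR 2.5.3a, HTSeq and edgeR and the builds GRCm38 and mm10, without roles. Which annotation release and which strand option were used is not given in these sources, so reads of antisense neighbours may be counted together. The table held 52636 genes, of which 52403 identifiers were found in GENCODE M21 for GRCm38, which gave coordinates; 0 columns were unused. For 97 symbols with more than 1 identifier the one with the most counts was taken. Genes were kept by filterByExpr (minimum count 10, minimum total 15), scaled by TMM and tested with edgeR 4.0.16's quasi-likelihood F test (R 4.3.3) on replicate block and gate, with Benjamini-Hochberg adjustment; SE is the log2 fold over the root of F. Same-numbered libraries of the gates deviated together (r of at least 0.165 in all 4 pairs). The 7-week comparison used 16 libraries with a block per week and replicate number, in which same-numbered 7-week libraries had r of 0.054 to 0.18. CPM uses the plain library total; the floor is 3 counts over a gate and covers counting error only. Alternatives were no block, RLE, no filter, DESeq2 1.42.0, 16- and 22-library fits and leaving out each replicate number. The fit was tested on simulated data (13 of 15344 unchanged genes called), in which far fewer genes were changed than passed here.

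Named genes were fixed anchors, the 4 widest called members of each list at 2 CPM or more, the 15 widest called genes in each direction at 5 CPM or more without overlap of the gates (leaving out predicted, mitochondrial, Xist and Y-linked genes), and the 8 genes of smallest interaction p in each direction; the text names fewer, and other list members with their values; some genes are not reported here, though they count in the totals of their lists. The comparison, lists and members were chosen with earlier results of these data known.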

Additional observations from a re-analysis of the deposited data

Results flagged for a closer look

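In 30 of the 474 gene and gate combinations checked, 1 of the 4 libraries stood apart from the other 3 by more than the 95% critical value of Dixon's test (0.829); chance flags about 1 in 20 groups, and no explanation was tested. In the EpCAM-high gate these were Aldoa in replicate 2 (238 CPM, nearest 207), B2m in replicate 1 (183 CPM, nearest 121), Cdh1 in replicate 3 (853 CPM, nearest 913), Dhrs3 in replicate 1 (8.62 CPM, nearest 11.4), Evpl in replicate 1 (343 CPM, nearest 278), Icam1 in replicate 1 (147 CPM, nearest 217) and Slc2a1 in replicate 3 (319 CPM, nearest 293). In the EpCAM-low gate they were B2m in replicate 1 (189 CPM, nearest 118), Cldn4 in replicate 3 (62 CPM, nearest 88.8), Dusp6 in replicate 1 (333 CPM, nearest 390), Fbln1 in replicate 3 (68 CPM, nearest 66.1), Gpr161 in replicate 1 (29 CPM, nearest 20.7), Hmga1 in replicate 3 (83.4 CPM, nearest 75.3), Lamb3 in replicate 2 (229 CPM, nearest 279), Ldha in replicate 1 (363 CPM, nearest 383), Slc7a8 in replicate 2 (15.9 CPM, nearest 11.7), Sox9 in replicate 4 (110 CPM, nearest 83.4) and Tyms in replicate 4 (18.6 CPM, nearest 16.3). In genes with too few counts to test, a library with 1 or a few counts stood apart for Cd3e (0.131 CPM), Des (0.522 CPM), Foxi3 (0.147 CPM), Hmga2 (0.153 CPM), Ihh (0.305 CPM), Lhx2 (0.238 CPM), Lin28a (0.147 CPM), Lin28a (0.152 CPM), Lin28b (0 CPM), Ptprc (0.14 CPM), Trim71 (0 CPM) and Trim71 (0.238 CPM).

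The gate difference itself differed between the weeks, by the gate by time term of the 16-library fit (log2, 7 weeks minus 3 weeks, adjusted p under 0.05). It was more positive at 7 weeks for Alcam (1.49), Cald1 (3.11), Ceacam1 (2.58), Cldn1 (1.71), Epcam (0.34), Gli1 (1.61), Gli2 (1.61), Krt17 (2.93), Krt6a (0.71), Ptch1 (1.41) and Sox9 (0.61). It was more negative for Car12 (-1.46), H19 (-1.26), Icam1 (-1.07), Krt4 (-1.34) and Pappa (-2.69). Sex moved with the week in these libraries, as described above. Fitted on libraries with Y-linked transcripts only, the term of Epcam no longer passed (0.37, adjusted p = 0.154), and those of the other genes in this paragraph did.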

How the results depend on the processing

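The 8-library fit called 5968 genes at 3 weeks (2921 higher, 3047 lower). DESeq2 called 3348 (1649 higher, 1699 lower), and the 22-library fit with wild-type libraries and no block 2625 (1272 and 1353). Counts stayed within 1.5 times of the reported ones with RLE size factors (5972), without the filter on low counts (5786), in the 16-library fit (5300) and without the replicate block (4474); the pairing and the block are described in the methods. Leaving out 1 replicate number gave 5005 to 5358 genes, 2458 to 2642 of them higher and 2517 to 2716 lower, and the share of higher genes among those called stayed between 46.3% and 49.9%. The gate by time term passed in 2243 genes, in 1099 without the replicate block, in 1267 with DESeq2, in 1405 to 1900 with a replicate number left out (1405 without replicate 2) and in 486 with Y-linked libraries only, an alternative chosen after the sex-linked genes were seen. At 7 weeks counts stayed within 1.5 times of 7902. Of 50 counts of list members, 34 moved by over 1.5 times in the 22-library fit, 18 with DESeq2 and 5 without the block. No called value reversed. The causes were not tested. Without the block Cldn2, H2-K1, Mki67 and Plagl1 no longer passed, and the block changed no other call among the genes named. At totals of 6.19 to 8.4 M counts, genes near or below 1 CPM could mostly not be tested. In simulated libraries 64.6% of genes with a true log2 fold of 0.5 and 85.4% of those with 1 were called at 3 weeks. Only 99 and 96 of 15539 genes were changed there, whereas 37.8% of genes passed in the data, so these rates cannot be carried over. The simulated libraries were drawn with the fitted spread, so they cannot show whether replicates are technical.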

Other observations

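Interferon and antigen presentation genes were mostly too low to test or differed little between the gates at 3 weeks. Of 15 tested genes 3 were higher and 6 lower in EpCAM-high cells, beside 18.5% and 19.3% of all genes tested. Irf1, an interferon response factor, was at 89.7 ± 8.29 against 122 ± 5.95 CPM (log2 fold -0.49), the class I genes H2-K1 and H2-D1, whose reads can be shared between close copies, had log2 folds of -0.23 and -0.23, and B2m did not pass (134 ± 32.3 against 132 ± 38.2 CPM). The class II gene H2-Ab1 was higher at a low level (11.4 against 7.76 CPM, log2 fold 0.52; adjusted p = 0.117 without replicate 3).

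Among SOX, imprinted and oncofetal genes some were lower and few higher. H19, an imprinted non-coding transcript, was at 56.1, 89.1, 74.4 and 73.9 CPM in EpCAM-high and 162, 256, 196 and 176 CPM in EpCAM-low libraries (log2 fold -1.47 ± 0.051, adjusted p = 3.93e-33), without overlap. The neighbouring growth factor gene Igf2 was near 1 CPM or below in both gates and was not tested. Igf2bp3, an oncofetal RNA-binding protein gene, was lower (8.87 against 13.6 CPM, log2 fold -0.66), Hmga1 was slightly higher (91.6 against 76.8 CPM, log2 fold 0.21), and Plagl1 slightly lower (290.0 against 309 CPM, log2 fold -0.14; adjusted p = 0.0536 without replicate 4). Lin28a, Lin28b, Hmga2 and Trim71 all had under 0.5 CPM in both gates. Over this list 3 of 19 tested genes were higher and 9 lower (5 without replicate 4, and 3 both with DESeq2 and in the fit with wild-type libraries).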
